A study of Homo sapiens with 9 samples.

Results

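The nuclear genes of respiratory complexes II to V were followed in HAP1 cells as the number of sorted cells per library was scaled down. A gene belonged to the set if its symbol in the count files was SDHA, SDHB, SDHC, SDHD, CYC1 or CYCS, or began with UQCR, ATP5, or COX followed by a number. Pseudogenes and antisense genes were left out. This rule found 60 of 26485 gene models and used no measured value. The set held 4 subunits of complex II, 9 of complex III, cytochrome c itself, 16 subunits and isoforms of complex IV, 9 assembly genes of complex IV, and 15 subunits of complex V. The other 6 (UQCRHL, COX7A2L, ATP5L2, ATP5S, ATP5SL and ATP5J2-PTCD1) carry such names without being established subunits and are described apart.

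HAP1 is an adherent, near-haploid human line that descends from KBM-7, a chronic myeloid leukaemia line, and all libraries came from unmodified cells (genotype WT) of this line. RNA was isolated on NAxtra magnetic beads from 1 cell (3 libraries), 10 cells (2), 100 cells (2) or 1000 cells (2) that had been sorted by flow cytometry, and libraries were made with the SMART-Seq Stranded kit. No treatment was given, so the only labelled difference between groups was the number of cells. The replicates are labelled as biological, but whether they came from separate cultures is not stated, so the p-values measure the spread between these libraries. In the libraries of 10 or more cells, less of a transcript in each cell and fewer cells that carry it cannot be told apart.

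Oxidative phosphorylation passes electrons along protein complexes of the inner mitochondrial membrane. Complex II oxidises succinate and reduces ubiquinone, complex III passes the electrons to the soluble carrier cytochrome c, and complex IV hands them to oxygen. Complexes III and IV pump protons, and complex V, the ATP synthase, uses the returning protons to make ATP. Most subunits are encoded in the nucleus, and all of the genes described here are, while the catalytic core of complex IV and a few other subunits come from mitochondrial DNA. Complex IV cannot be built without dedicated assembly proteins that deliver copper and heme. Many nuclear respiratory genes carry promoter sites for NRF1, for ETS factors such as GABPA, or for YY1.

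The libraries held 42842970 to 61645865 counts assigned to genes, and 0.476% to 0.567% of them fell on the 60 members. Of the members, 53 had a count in every library and 4 had none in any, 1 of which (ATP5J2-PTCD1) could receive none under the counting used. Low-count filtering left 54 for the comparisons. Single Cell Rep 3 stood further from the rest than the other single cells. Of 15603 genes tested, 22.5% lay more than 1 log2 unit from the mean of the other 8 libraries and outside their range in that cell, against 16.2% in Single Cell Rep 1 and 16.5% in Single Cell Rep 2. The results of some members are therefore also given without it. BCR and ABL1, the fusion partners of the parental leukaemia, were present at a summed 13.8 to 44.2 counts per 1e+06 (CPM) in single cells, against 32.9 to 39.7 CPM in the larger inputs. Of 6 blood cell markers none averaged 1 CPM, and HBG1 and MPO were at 0. The 7 fibroblast markers summed to 7.59 to 15.3 CPM in single cells, against 10.2 to 18.2 CPM in the larger inputs. Of these, 2 averaged 1 CPM or more, with COL1A1 highest at a mean of 10.9 CPM, and DCN and LUM were at 0 throughout. Plasma cell markers summed to 42.6 to 61.9 CPM in single cells and 46.8 to 54.6 CPM in the larger inputs. Of those 7 genes only SDC1 averaged 1 CPM or more, and TNFRSF17 was at 0.

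Promoter sequences were available for 45 of the 60 members in RefSeq (GRCh38.p14), each running from 250 bases before the transcription start to 50 bases after it. They were searched on both strands for an NRF1 core (GCGCATGCG), an ETS motif (CCGGAAG), a YY1 motif (AAGATGGCG) and an SP1 motif (GGGCGG). The NRF1 core occurred in 8 of the 45 windows (17.8%), against 1.92% of 35116 promoters of the same length. The ETS motif occurred in 17 (37.8%), against 10.3%, and the YY1 motif in 4 (8.89%), against 1.75%. The SP1 motif was common everywhere, in 53.3% of the members' windows and 45.0% of all. By complex, the NRF1 core was in 4 of 11 windows of complex V and in 0 of 7 of complex III, while the ETS motif was in 4 of 11 and 3 of 7. These counts are small and describe letters, not binding.

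The promoters of 4 members are shown, with NRF1, ETS and YY1 matches in capitals. COX17, COX16 and COX7B are the members that were lower in single cells, and ATP5J (ATP5PF in current nomenclature) is the only matched member with all 3 motifs. In COX17 the NRF1 core stands 116 bases before the start, where it is read on both strands as overlapping matches, and the ETS motif begins at base 11 of the transcript. In ATP5J the NRF1, YY1 and ETS matches begin 120, 57 and 30 bases before the start. COX16 and COX7B hold none of the 3 in this window.
COX17 promoter, chr3:119677357-119677656, minus strand: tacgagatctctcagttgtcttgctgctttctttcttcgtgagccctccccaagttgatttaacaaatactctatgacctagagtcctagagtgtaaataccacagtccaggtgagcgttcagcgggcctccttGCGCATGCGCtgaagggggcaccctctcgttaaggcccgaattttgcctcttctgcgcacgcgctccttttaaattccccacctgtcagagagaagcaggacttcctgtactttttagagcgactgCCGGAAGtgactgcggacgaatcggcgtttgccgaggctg
COX16 promoter, chr14:70359634-70359933, minus strand: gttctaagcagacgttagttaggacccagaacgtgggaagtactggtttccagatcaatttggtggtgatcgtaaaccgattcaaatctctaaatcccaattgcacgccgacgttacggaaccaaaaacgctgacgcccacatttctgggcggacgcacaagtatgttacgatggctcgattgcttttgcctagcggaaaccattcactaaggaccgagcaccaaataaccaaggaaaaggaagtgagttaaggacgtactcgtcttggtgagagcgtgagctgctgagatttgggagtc
COX7B promoter, chrX:77899218-77899517, plus strand: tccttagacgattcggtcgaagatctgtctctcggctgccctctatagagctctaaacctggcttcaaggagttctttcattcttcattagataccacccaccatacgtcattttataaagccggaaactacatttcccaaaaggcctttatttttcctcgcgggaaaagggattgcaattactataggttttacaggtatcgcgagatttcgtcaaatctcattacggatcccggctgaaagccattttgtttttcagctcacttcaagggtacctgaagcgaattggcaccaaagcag
ATP5J promoter, chr21:25735005-25735304, minus strand: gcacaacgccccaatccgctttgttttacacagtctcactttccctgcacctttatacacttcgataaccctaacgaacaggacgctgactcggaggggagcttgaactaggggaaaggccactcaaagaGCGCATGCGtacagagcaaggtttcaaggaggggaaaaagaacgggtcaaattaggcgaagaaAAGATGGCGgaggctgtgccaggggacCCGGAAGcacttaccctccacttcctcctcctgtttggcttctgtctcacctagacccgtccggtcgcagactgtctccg

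Levels of different genes were compared as reads per kilobase of exon model at a common depth (RPKM). In the 1000-cell libraries the subunits of complex IV held the highest levels, with COX7C, a small membrane subunit, at 608 RPKM, rank 65 of all gene models, followed by COX4I1 at 362 RPKM and COX7B at 322 RPKM. ATP5B, the catalytic beta subunit of the F1 head of complex V, reached 302 RPKM, and ATP5A1, its alpha partner, 203 RPKM. Within complex II the levels were uneven. SDHB, the iron-sulfur subunit, was at 96.0 RPKM and SDHA, the flavoprotein that oxidises succinate, at 63.0 RPKM, while the membrane anchors SDHD and SDHC were at 22.4 and 11.8 RPKM. Per exon length complex III was the most even, with UQCRH (hinge protein) highest at 117 RPKM and UQCRB lowest at 31.3 RPKM, a ratio of 3.73. The exon model of UQCRB spans 5223 bases, against 771 for UQCRH. In CPM at 1000 cells UQCRB was the higher of the pair, at 164 against 90.1 CPM. The ratio of the highest to the lowest subunit at 1 CPM or more was 8.12 in complex II, 10.96 in complex IV and 13.2 in complex V. The lowest of complex V, ATP5G3, has an exon model of 3482 bases, so these ratios depend on the exon models used. Per exon length the assembly genes of complex IV lay far below the subunits they serve, with a median of 8.32 RPKM. The median was 159 RPKM for the 10 complex IV subunits at 1 CPM or more and 98.3 RPKM for all 16. COX17, the copper chaperone that hands copper to other assembly proteins, was the exception at 91.3 RPKM. RPKM divides by exon length, which ran from 423 bases (COX17) to 7689 (COX15) for assembly genes. For the complex IV subunits it ran from 407 bases (COX7C) to 1663 (COX6B2). Summed at 1000 cells, the 9 assembly genes were at 290 CPM and the 16 subunits at 1365 CPM.

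**Figure D1:**
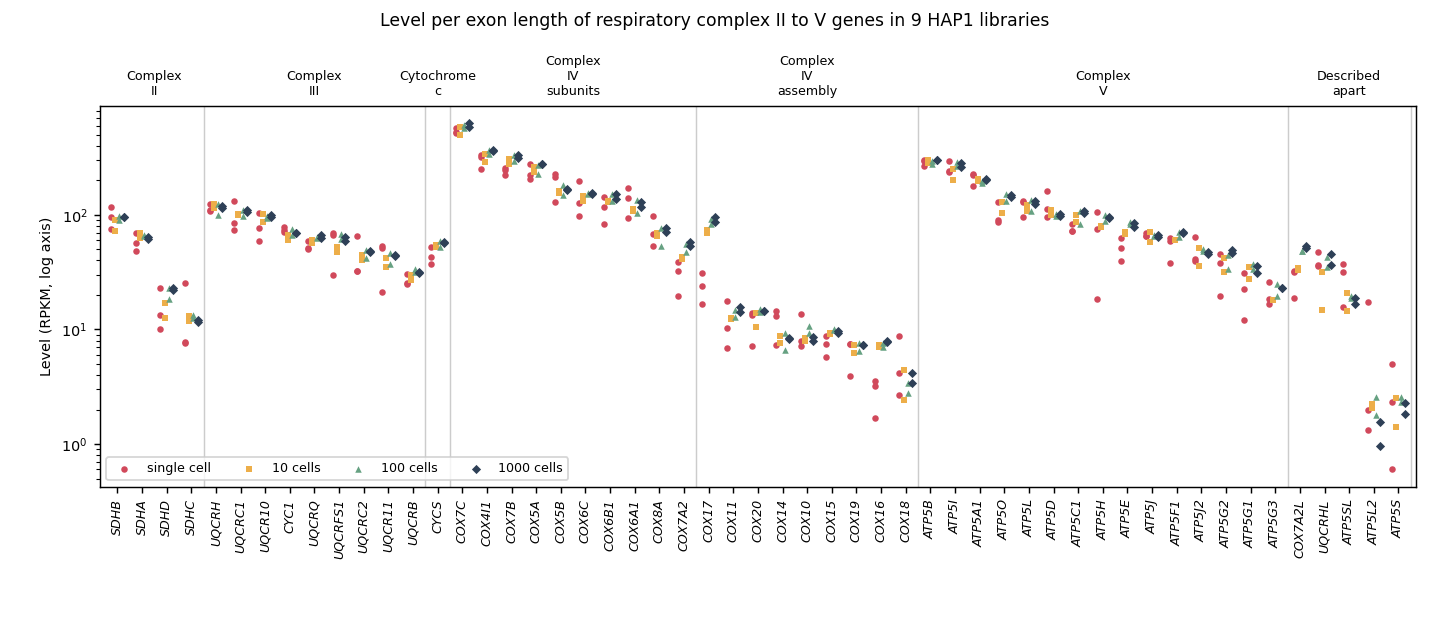
Level of each member with a mean of at least 1 CPM in the 9 libraries, in RPKM on a log axis, grouped by complex and sorted by mean level, with 1 point per library. The assembly genes of complex IV lie near 10 RPKM apart from COX17, and single cells (red) scatter most, for example for ATP5H and SDHC.

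Several exon models include long untranslated ends or shared sequence that lower a level or make it uncertain. Counting left out reads that mapped to several places or to several genes. Of the 50-base windows in the transcripts, 34.6% for COX6A1, 29.4% for UQCRH and 21.1% for SDHA also occur in another gene or pseudogene elsewhere, so these levels are lower limits. For COX17 the share was 3.92% of 1198 windows and for COX7B 2.64% of 3065. Their counted exon models span only 423 and 456 bases, so the share within the counted bases was not measured and may differ. In the files' gene models 87.6% of the COX16 exon bases also belong to the readthrough gene SYNJ2BP-COX16, and 66.3% of those of ATP5E to SLMO2-ATP5E, so both levels rest on the remaining bases. Differences between libraries compare the same bases of a gene and share this limit equally.

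HAP1 cells expressed the widespread isoform of each complex IV subunit that has a tissue-specific partner. COX4I1 was at 209 to 272 CPM in single cells and 237 to 304 CPM in the larger inputs, while COX4I2, its lung isoform, had 0 counts in all 9 libraries. Likewise COX6A1 was at 53.5 to 97.6 CPM in single cells and 59.8 to 76.9 CPM in the larger inputs, and its muscle isoform COX6A2 had 0 counts. COX7B2, a testis isoform, also had 0 counts. A count of 0 allowed up to 0.0483 to 0.0692 CPM, depending on the library (3 counts, counting error only, reads taken as independent). Single reads rather than pairs were counted, so reads of a pair are not independent and the limit may be higher. COX7A1, the muscle isoform of COX7A2, had 1 count in 100 Cell Rep 1 and 4 counts in 1000 Cell Rep 1, and 0 elsewhere. COX8C, a testis isoform of COX8A, had 2 and 3 counts in the 1000-cell libraries and 0 elsewhere.

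COX6B2, the testis isoform of COX6B1, was the exception. It had 141 counts (2.70 CPM) in Single Cell Rep 3 and 0 counts in the other single cells, against 11 and 16 counts in the 10-cell libraries, 2 and 9 in the 100-cell libraries and 12 and 28 in the 1000-cell libraries. 1 of 3 cells thus carried it above the range of the larger inputs (0.0387 to 0.451 CPM) and the others had 0 counts. Its fitted log2 fold change of 1.68 ± 1.51 (SE) in single cells over the larger inputs did not pass the test (edgeR quasi-likelihood test, adjusted p = 0.515). Without Single Cell Rep 3 the value turned to -2.89 (adjusted p = 0.0474), which rests on 2 libraries at 0 and is not a bound. COX6B1 was at 84.4, 49.4 and 69.0 CPM in single cells and 75.6 to 89.0 CPM in the larger inputs.

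The c subunit, which forms the rotor ring of complex V, is encoded by ATP5G1, ATP5G2 and ATP5G3, whose mature proteins are the same. ATP5G3 gave 44.7% to 63.6% of their summed CPM in single cells and 46.7% to 52.3% in the larger inputs. ATP5G1 gave the least in all 9 libraries, 8.64% to 14.2% in single cells and 12.6% to 17.8% in the larger inputs. Per exon length ATP5G2 was highest in 7 of 9 libraries, with 37.5% to 48.1% of summed RPKM over all libraries. The sum of the 3 genes was 90.7, 154.8 and 142 CPM in single cells, against 127 to 166 CPM in the larger inputs, so Single Cell Rep 1 fell below the range.

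The first comparison asked whether single cells showed the same levels as larger inputs. Of the 54 members tested, 3 were lower in single cells and 0 were higher. All 3 belong to complex IV: the assembly genes COX17 and COX16, and the subunit COX7B. The remaining 51 did not pass the test, among them all tested members of complexes II, III and V. Over all 15603 genes, 4.45% were called lower and 2.22% higher (edgeR quasi-likelihood test, adjusted p under 0.05), so 3 of 54 (5.56%) was near the background. The single cells had counts for 13968 to 14478 genes, against 16283 to 18634 genes in the larger inputs, and the part of this lower complexity in the differences was not tested. The members' median log2 fold change was -0.10, against 0.01 over all genes, and 64.8% of members were below 0, against 48.8% of all genes. The 3 single cells lay entirely below the 6 larger inputs for 9 members (16.7%), against 10.0% of all genes, and entirely above for 0, against 4.98%. The members called changed with the libraries used: 14 (25.9%) were called without Single Cell Rep 1, against 17.8% of all genes in that fit, 7 (12.96%) without Single Cell Rep 2, against 19.8%, and 12 (22.2%) without Single Cell Rep 3, against 15.0%. None were called without 100 Cell Rep 2, 1000 Cell Rep 1 or 1000 Cell Rep 2, where no gene of the table passed. A fit of all 9 libraries as 4 groups called none. DESeq2 called 9 (16.7%), all lower, against 9.83% of all genes called lower and 16.6% called in either direction.

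**Figure D2:**
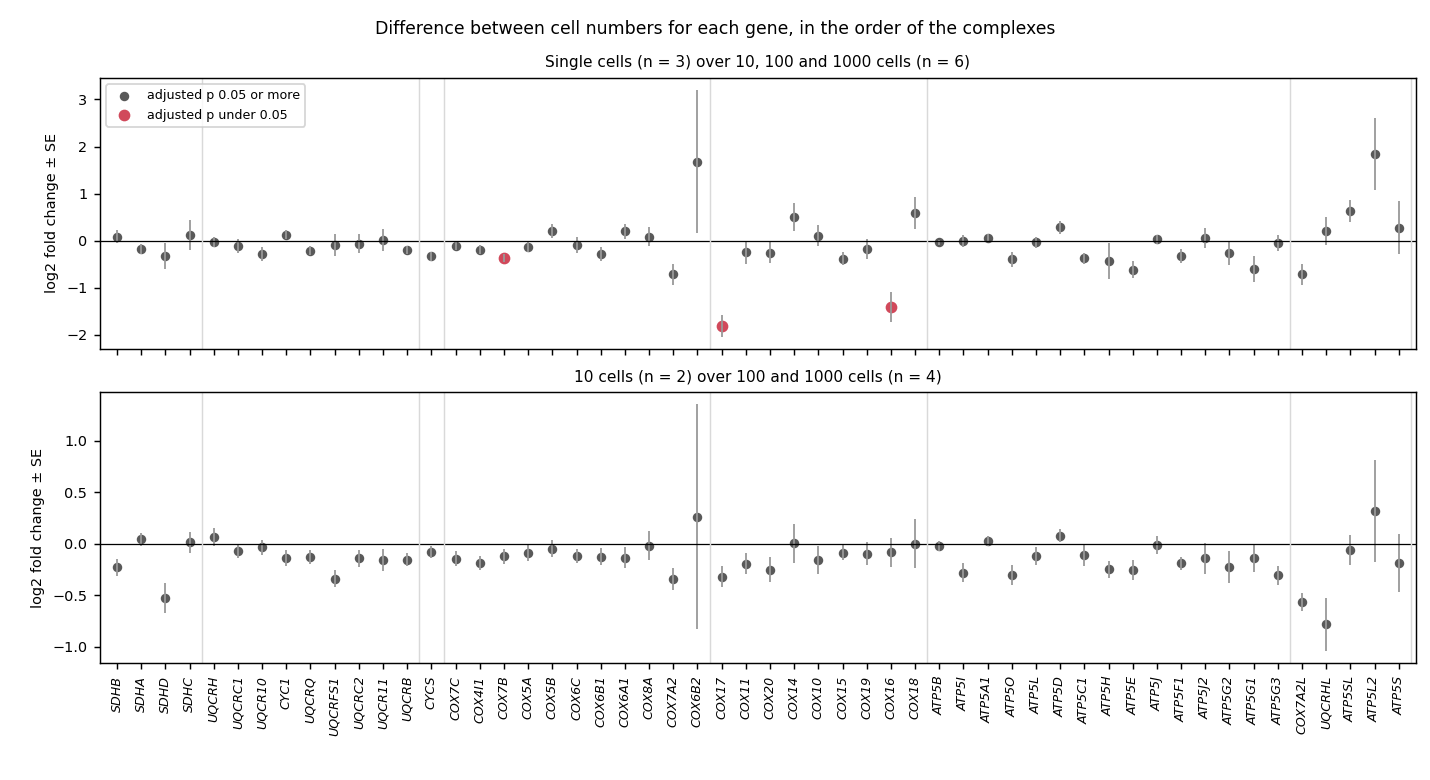
Log2 fold change of each tested member with its SE, for single cells over the larger inputs (above) and for 10 cells over 100 and 1000 cells (below), in the order of the complexes. COX17, COX16 and COX7B (red) passed the test in the upper comparison and no member did in the lower one, where most points lie just below 0.

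COX17 showed the largest change of any member past the test. It was at 13.1, 7.08 and 10.1 CPM in single cells, against 29.2 and 31.4 CPM at 10 cells, 35.5 and 38.9 CPM at 100 cells, and 36.8 and 40.5 CPM at 1000 cells. These values rest on 680, 361 and 526 counts in single cells and on 1268 to 2512 counts in the larger inputs. Every single cell was below every larger input. The log2 fold change was -1.81 ± 0.23 (SE), a level of 0.286 relative to the larger inputs, with an adjusted p of 0.0131 (edgeR). The gene lies on the minus strand of chromosome 3 at 119669525 to 119677396 (hg38), and its exons span 423 bases. Over 18 alternatives its log2 fold change stayed between -2.04 and -1.61 and it passed the test in 13. It missed the threshold without 100 Cell Rep 2 (adjusted p = 0.0569), 1000 Cell Rep 1 (0.0540) or 1000 Cell Rep 2 (0.0565), in the 4-group fit (0.0833) and in limma with weights (0.236).

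COX16, an assembly protein that acts in building the COX2 copper centre, was at 6.10, 5.47 and 2.89 CPM in single cells, against 12.6 and 11.999 CPM at 10 cells, 13.01 and 12.1 CPM at 100 cells, and 13.5 and 13.7 CPM at 1000 cells. The groups did not overlap, and the 6 larger inputs lay within a narrow band. Its log2 fold change was -1.40 ± 0.31 (SE), with an adjusted p of 0.0274 (edgeR), on 151 to 316 counts per single cell. The gene lies on the minus strand of chromosome 14 at 70325081 to 70359731 (hg38). Over the 18 alternatives the log2 fold change ranged from -1.61 to -1.14 and 13 passed. The exceptions were the 3 left-out libraries named for COX17 (adjusted p = 0.0720, 0.0773 and 0.0772), the 4-group fit (0.118) and limma with weights (0.404).

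**Figure D3:**
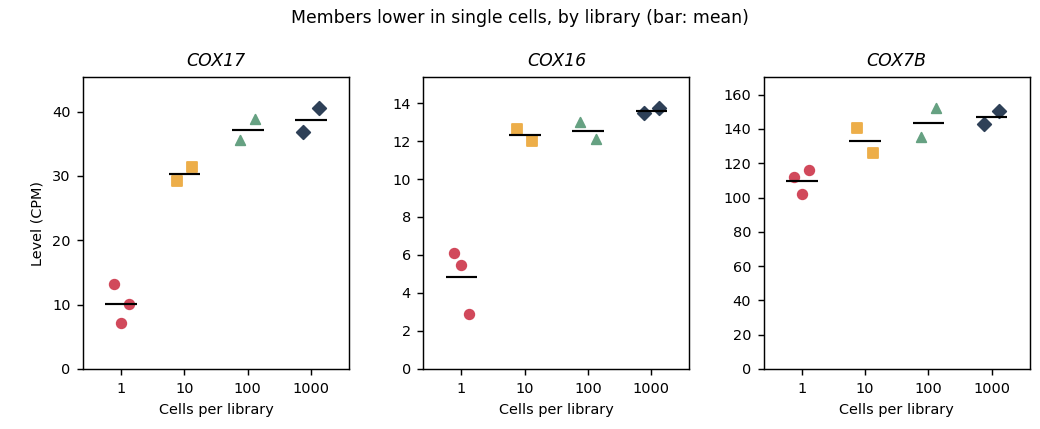
CPM of COX17, COX16 and COX7B in each library by number of cells, with 1 point per library and a bar at the group mean. All 3 single cells lie below all 6 larger inputs for each gene. For COX17 the 10-cell libraries also lie below the 100-cell and 1000-cell libraries.

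The other 7 assembly genes did not pass the test. COX15, which makes heme A, came closest at 68.0, 57.1 and 44.1 CPM in single cells, against 69.5 to 78.2 CPM in the larger inputs (log2 fold change -0.38, adjusted p = 0.103), and its groups did not overlap. COX10, which makes heme O in the preceding step, was at 41.0, 23.7 and 21.4 CPM in single cells and 23.9 to 32.5 CPM in the larger inputs, with overlapping groups. COX11, which inserts copper, was at 27.9, 48.1 and 18.8 CPM in single cells against 33.5 to 42.4 CPM. COX18, which inserts COX2 into the membrane and was the lowest assembly gene per length, was at 18.7, 12.2 and 39.8 CPM in single cells, against 10.9 and 20.1 CPM at 10 cells, 12.6 and 15.3 CPM at 100 cells, and 18.8 and 15.6 CPM at 1000 cells. COX14, COX19 and COX20 had log2 fold changes between -0.25 and 0.51. Single Cell Rep 3 was the lowest of the single cells for COX10, COX11, COX15, COX16, COX19 and COX20, and the highest for COX14 and COX18. Summed without COX16 and COX17, the assembly genes were at 177 to 235 CPM in single cells and 211 to 242 CPM in the larger inputs.

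Among the structural subunits of complex IV, COX7B, a small membrane subunit, was the only member called. It was at 112, 102 and 116 CPM in single cells, against 140 and 126 CPM at 10 cells, 135 and 152 CPM at 100 cells, and 143 and 151 CPM at 1000 cells. The groups did not overlap, but the gap was small. Its log2 fold change was -0.36 ± 0.09 (SE), a level of 0.777 relative to the larger inputs, with an adjusted p of 0.0348 (edgeR). The gene is on the plus strand of chromosome X at 77899464 to 77905384 (hg38). Of the 18 alternatives 10 kept the call, with log2 fold changes from -0.40 to -0.31. It missed the threshold without any of 10 Cell Rep 1, 100 Cell Rep 1, 100 Cell Rep 2, 1000 Cell Rep 1 or 1000 Cell Rep 2 (adjusted p = 0.0524 to 0.0936), without a low-count filter (0.0521), in the 4-group fit (0.119) and in limma with weights (0.522).

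COX7A2, the widespread isoform of subunit 7A and the lowest per length of the complex IV subunits at 1 CPM or more, had a larger difference that did not pass. It was at 14.8, 24.5 and 29.2 CPM in single cells, against 32.3 and 30.9 CPM at 10 cells, 35.6 and 42.1 CPM at 100 cells, and 43.8 and 40.0 CPM at 1000 cells. The groups did not overlap, the spread among single cells was wide, and the log2 fold change was -0.71 ± 0.22 (SE, edgeR adjusted p = 0.0721). Without Single Cell Rep 3 it was -0.93 (adjusted p = 0.0221), past the threshold. It did not pass without Single Cell Rep 1 (-0.48, adjusted p = 0.0804) or Single Cell Rep 2 (-0.77, adjusted p = 0.0575). COX7C, the highest subunit, was at 233, 209 and 213 CPM in single cells, against 237 and 202 CPM at 10 cells, 231 and 247 CPM at 100 cells, and 240 and 256 CPM at 1000 cells. Its groups overlapped, with a log2 fold change of -0.11. COX5B was at 65.1, 108 and 114 CPM in single cells, against 75.5 to 91.7 CPM in the larger inputs, so the single cells lay on either side of the larger inputs. COX6C was spread as widely, at 90.1, 117 and 180 CPM in single cells against 123 to 143 CPM. COX8A was at 27.1, 34.5 and 49.7 CPM in single cells, against 27.2 to 38.6 CPM in the larger inputs. Of 11 complex IV subunits tested, 7 had a log2 fold change below 0.

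No complex II gene passed the test, and the largest differences were between single cells. SDHC, a membrane anchor, was at 22.2, 72.8 and 22.1 CPM in single cells, against 34.1 and 37.9 CPM at 10 cells, 38.8 and 36.0 CPM at 100 cells, and 33.6 and 34.5 CPM at 1000 cells. Single Cell Rep 2 was thus above all larger inputs and the other single cells were below all of them. The pooled log2 fold change was 0.12 ± 0.33 (SE, edgeR adjusted p = 0.860), and without Single Cell Rep 2 it was -0.70 (adjusted p = 0.00883), the opposite sign. SDHD, the other anchor, was at 16.03, 36.1 and 21.2 CPM in single cells, against 27.1 and 20.0 CPM at 10 cells, 29.01 and 36.6 CPM at 100 cells, and 36.2 and 34.6 CPM at 1000 cells, and its groups overlapped (log2 fold change -0.33, adjusted p = 0.514). SDHB was at 86.4, 109.5 and 135 CPM in single cells, against 103 and 83.3 CPM at 10 cells, 104 and 113 CPM at 100 cells, and 110.8 and 109.9 CPM at 1000 cells. SDHA was at 135, 196 and 157 CPM in single cells and 173 to 195 CPM in the larger inputs. Single Cell Rep 1 was the lowest of the single cells for SDHA, SDHB and SDHD, and in the summed level of complex II, at 260 CPM against 317 to 369 CPM in the larger inputs.

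None of the 9 genes of complex III passed, and 7 had a log2 fold change below 0, between -0.27 and 0.13 over the complex. UQCR10, a small subunit, had the largest difference, at 100.2, 74.6 and 57.2 CPM in single cells, against 98.2 and 85.1 CPM at 10 cells, 91.9 and 95.3 CPM at 100 cells, and 93.6 and 96.3 CPM at 1000 cells (log2 fold change -0.27, edgeR adjusted p = 0.291). UQCRH was at 84.3, 83.8 and 96.2 CPM in single cells, against 95.4 and 88.4 CPM at 10 cells, 77.6 and 95.5 CPM at 100 cells, and 88.7 and 91.5 CPM at 1000 cells. UQCRB, which borders the ubiquinone site, was at 158, 133 and 131 CPM in single cells, against 157 and 141 CPM at 10 cells, 175 and 165 CPM at 100 cells, and 162 and 165 CPM at 1000 cells. Both overlapped between groups. UQCRFS1, UQCR11 and UQCRC2 were spread widely among the single cells, with Single Cell Rep 3 at one end. UQCRFS1, the Rieske iron-sulfur protein, was at 36.5 CPM there and at 81.2 and 84.8 CPM in the other single cells, against 58.3 to 83.6 CPM in the larger inputs. UQCR11 was at 28.3 CPM there and at 71.9 and 68.1 CPM in the others, against 46.9 to 62.2 CPM. UQCRC2, a core protein, ran the other way, at 144 CPM in Single Cell Rep 3 and 71.8 CPM in both others, against 88.5 to 109.7 CPM. For both UQCR11 and UQCRC2 all single cells lay outside the range of the larger inputs, on either side of it. UQCRC1, the other core protein, was highest in Single Cell Rep 1, at 213 CPM, with 119 and 137 CPM in the other single cells and 159 to 179 CPM in the larger inputs.

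CYCS, the soluble carrier between complexes III and IV, was at 290.4, 238 and 208 CPM in single cells, against 300.05 and 293 CPM at 10 cells, 290.5 and 328 CPM at 100 cells, and 314 and 323 CPM at 1000 cells. All single cells were below all larger inputs, though Single Cell Rep 1 only by a margin smaller than the spread of the larger inputs. The log2 fold change was -0.33 ± 0.10 (SE, edgeR adjusted p = 0.0677). Without Single Cell Rep 1 it was -0.47 (edgeR adjusted p = 0.00631), past the threshold. It did not pass without Single Cell Rep 2 (-0.31, adjusted p = 0.0797). Without Single Cell Rep 3, the lowest library for CYCS, it shrank to -0.22 (adjusted p = 0.103). CYC1, the cytochrome c1 of complex III to which the carrier docks, was at 91.9, 87.7 and 97.2 CPM in single cells, against 74.5 to 93.4 CPM in the larger inputs.

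In complex V 0 of 15 genes passed, 11 were below 0, and the median log2 fold change was -0.05. Of the catalytic pair, ATP5B was at 552, 542 and 492 CPM in single cells, against 520.2 and 550.5 CPM at 10 cells, 517 and 547 CPM at 100 cells, and 555 and 559 CPM at 1000 cells, a log2 fold change of -0.04 ± 0.06 (SE). ATP5A1 was at 546, 437 and 539.8 CPM in single cells, against 456 to 495 CPM in the larger inputs. None of the 3 subunits of the central stalk passed the test. ATP5E (F1 epsilon) was at 27.9, 17.2 and 22.7 CPM in single cells, against 30.9 and 29.99 CPM at 10 cells, 37.8 and 36.2 CPM at 100 cells, and 34.3 and 37.5 CPM at 1000 cells. Its groups did not overlap, with a log2 fold change of -0.61 ± 0.18 (SE, edgeR adjusted p = 0.0683). ATP5C1 (F1 gamma) was at 83.6, 82.8 and 94.6 CPM in single cells against 95.1 to 125 CPM, also without overlap (log2 fold change -0.37, adjusted p = 0.0674). Without Single Cell Rep 3 the ATP5C1 value was -0.44 (edgeR adjusted p = 0.0353), past the threshold. It did not pass without Single Cell Rep 1 (-0.35, adjusted p = 0.0773) or Single Cell Rep 2 (-0.34, adjusted p = 0.0780). ATP5D (F1 delta), the third stalk subunit, had the opposite sign, at 112, 161 and 96.1 CPM in single cells against 97.2 to 109 CPM (log2 fold change 0.29, adjusted p = 0.227).

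Of the remaining complex V subunits, ATP5H (subunit d of the peripheral stalk) had the widest spread between single cells of any subunit above 1 CPM, a 5.77-fold range. It was at 65.6, 46.6 and 11.4 CPM in single cells, against 48.6 to 62.1 CPM in the larger inputs, so Single Cell Rep 3 was far below that range and Single Cell Rep 2 just below it. ATP5F1 (subunit b), which pairs with it in the stalk, was also lowest there, at 79.8 CPM, with 124 and 132 CPM in the other single cells and 127 to 150.3 CPM in the larger inputs. ATP5J (coupling factor 6), a further stalk subunit, had the narrowest range, 1.08-fold, at 90.6, 85.2 and 83.9 CPM in single cells against 74.8 to 92.4 CPM. ATP5G3, the lowest per length, was at 57.7, 91.0 and 63.6 CPM in single cells, against 63.0 and 62.9 CPM at 10 cells, 67.6 and 86.2 CPM at 100 cells, and 79.7 and 79.4 CPM at 1000 cells. ATP5G2 was at 25.2, 49.0 and 58.6 CPM in single cells, against 41.2 to 63.7 CPM, and ATP5G1 at 7.84, 14.7 and 20.2 CPM, against 17.7 to 24.0 CPM. Both were lowest in Single Cell Rep 1.

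Of the genes described apart, none of the 5 tested passed. COX7A2L, which helps join complexes III and IV into supercomplexes, was at 35.8, 20.8 and 35.4 CPM in single cells, against 37.0 and 38.6 CPM at 10 cells, 53.4 and 54.3 CPM at 100 cells, and 57.7 and 59.2 CPM at 1000 cells. The 4 groups stood in the order of their cell number, with no overlap between neighbours. The log2 fold change was -0.71 ± 0.22 (SE, edgeR adjusted p = 0.0759). ATP5SL (DMAC2), an assembly factor of complex I despite its name, was at 68.8, 58.2 and 28.9 CPM in single cells against 26.3 to 38.3 CPM. Its log2 fold change was 0.64 (adjusted p = 0.112), and without Single Cell Rep 3 it was 0.93 (adjusted p = 0.00590). ATP5L2, an intronless copy of ATP5L and the lowest per length of these genes at 1 CPM or more, was at 1.58, 13.7 and 1.05 CPM in single cells, against 1.77 and 1.66 CPM at 10 cells, 2.05 and 1.44 CPM at 100 cells, and 0.761 and 1.24 CPM at 1000 cells. Single Cell Rep 2 alone was above the larger inputs. Of its 50-base windows 5.20% occur elsewhere, ATP5L among them, and ATP5L itself was at 133, 179.6 and 184 CPM in single cells. ATP5S was at 5.08, 1.31 and 10.8 CPM in single cells, against 3.06 and 5.52 CPM at 10 cells, 5.59 and 5.11 CPM at 100 cells, and 3.97 and 4.98 CPM at 1000 cells. UQCRHL, an intronless copy of UQCRH, was at 19.6, 25.4 and 19.4 CPM in single cells against 7.91 to 24.5 CPM. The UQCRH windows found elsewhere (29.4%) occur in UQCRHL. Reads that mapped to several places were left out, so the UQCRHL level rests on its remaining bases. ATP5J2-PTCD1, a readthrough gene, had 0 counts in all libraries, but 100.0% of its exon bases also belong to ATP5J2 or PTCD1 and reads over several genes were left out, so this says nothing of its expression.

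Summed by complex, single cells and larger inputs overlapped for complexes II to V. Complex II summed to 260, 414 and 335 CPM in single cells, complex III to 967, 802 and 808 CPM, the complex IV subunits to 1211, 1063 and 1291 CPM, and complex V to 2039, 2029.7 and 1946 CPM. In the larger inputs the ranges were 317 to 369 CPM for complex II, 844 to 964 CPM for complex III, 1169 to 1391 CPM for complex IV and 1985 to 2207 CPM for complex V. The 45 subunits together averaged 4635 ± 117 CPM in single cells (SD, n = 3) and 4978 ± 254 CPM in the larger inputs (SD, n = 6). Over the larger inputs they averaged 4739 CPM at 10 cells, 5023 CPM at 100 cells and 5172 CPM at 1000 cells. The assembly genes of complex IV summed to 253.8, 239.7 and 189 CPM in single cells and 253 to 293 CPM in the larger inputs.

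**Figure D4:**
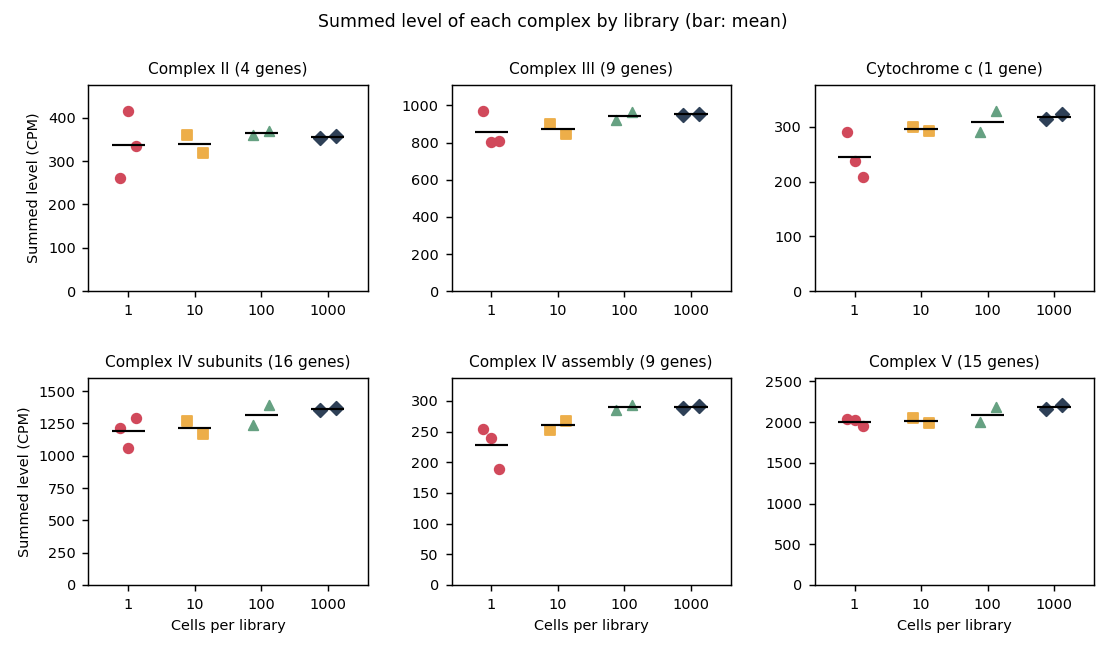
Summed CPM of the genes of each complex in every library, by number of cells, with replicates from left to right, a bar at the group mean and axes from 0. Single cells scatter around the larger inputs for complexes II and III. For complexes IV and V the ranges overlap, but every single cell lies below the mean of the larger inputs (1299 and 2095 CPM). Single Cell Rep 3 is the lowest single cell for cytochrome c, the assembly genes and complex V.

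Single cells differed from each other more than the larger inputs did, as did other genes of like level. Of 34 members between 10 and 100 CPM, the median SD of log2 CPM among the 3 single cells was 0.45, against 0.48 over all 7535 genes in that range. Of 16 members between 100 and 1000 CPM it was 0.24, against 0.23 over 2278 genes. Between the 2 libraries of a larger input, the median absolute log2 difference of the 34 members was 0.14 at 10 cells, 0.19 at 100 cells and 0.07 at 1000 cells. Over all 7535 genes it was 0.19, 0.17 and 0.08. An absolute difference of 2 values is larger than their SD, so the 2 measures are not on 1 scale. Of the 54 members, 3 in Single Cell Rep 1, 5 in Single Cell Rep 2 and 7 in Single Cell Rep 3 lay over 1 log2 unit from the mean of the other 8 libraries and outside their range. These are 5.56%, 9.26% and 12.96% of members, below the shares of all genes given above, which include many genes of low level. In Single Cell Rep 1 they were ATP5G1, ATP5G2 and COX7A2, all low. In Single Cell Rep 2 SDHC and ATP5L2 were high and COX17, COX7A2L and ATP5S low. In Single Cell Rep 3 COX18, COX6B2 and ATP5S were high and COX16, ATP5H, UQCR11 and UQCRFS1 low. ATP5S was the sole member in more than 1 of these lists.

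**Figure D5:**
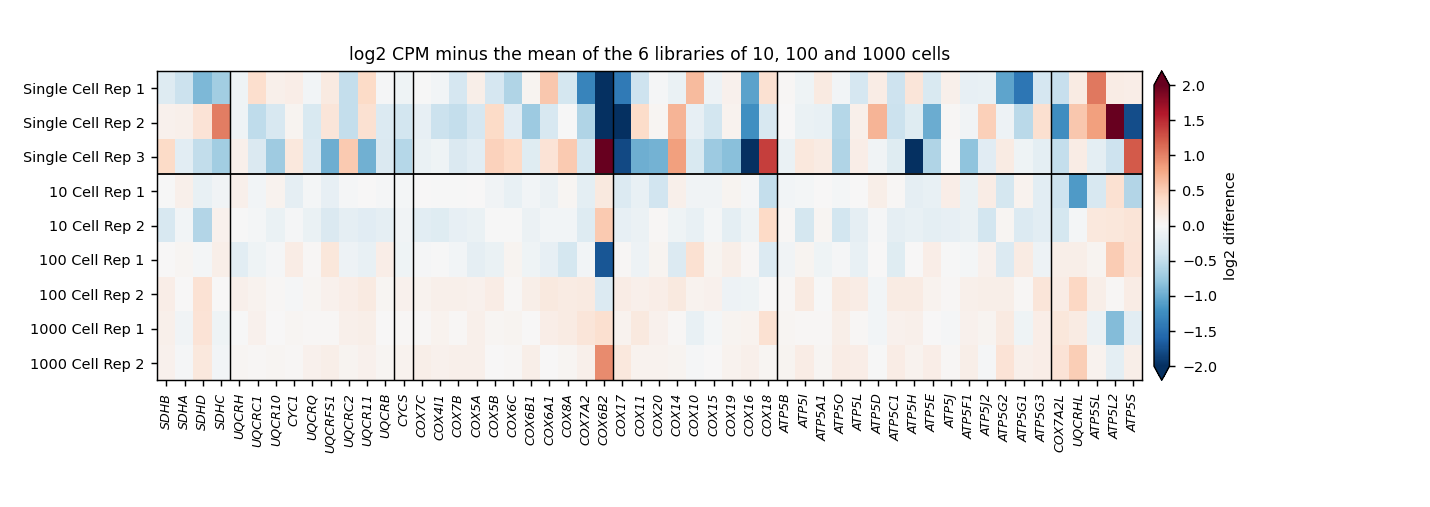
Log2 CPM of each tested member minus its mean over the 6 libraries of 10, 100 and 1000 cells, with libraries in rows and members in columns by complex (red higher, blue lower, colour limited to 2 log2 units). Single cells are above the horizontal line. COX17 and COX16 are blue in all 3, whereas ATP5H is blue in Single Cell Rep 3 and SDHC red in Single Cell Rep 2.

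The second comparison set 10 cells against 100 and 1000 cells. No member passed the test, while 0.0126% of 15926 genes were called higher and 0.00628% lower (2 and 1 genes). The members nevertheless leaned 1 way: 46 of 54 (85.2%) had a log2 fold change below 0, against 49.9% of all genes, with a median of -0.13 against 0.00 over all genes. The 10-cell libraries lay entirely below the other 4 for 21 members (38.9%), against 12.5% of all genes, and entirely above for 0, against 10.7%. At an unadjusted p under 0.05, 15 members (27.8%) were lower, against 7.34% of all genes. Genes below 0 were 2 of 4 in complex II (SDHD at -0.53 and SDHB at -0.23, both without overlap), 8 of 9 in complex III, 10 of 11 in complex IV, 8 of 9 assembly genes and 13 of 15 in complex V. It was small for most genes and differed between libraries. Against the mean of the other larger inputs, the members' median log2 difference was -0.05 in 10 Cell Rep 1, -0.15 in 10 Cell Rep 2, -0.02 in 100 Cell Rep 1, 0.13 in 100 Cell Rep 2, 0.05 in 1000 Cell Rep 1 and 0.09 in 1000 Cell Rep 2. This comparison shares the 6 larger inputs with the first.

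The member with the smallest adjusted p here was COX7A2L, at 37.0 and 38.6 CPM in the 10-cell libraries, against 53.4, 54.3, 57.7 and 59.2 CPM in the others. Its log2 fold change was -0.57 ± 0.09 (SE), with an adjusted p of 0.138 (edgeR). DESeq2 called it, together with SDHD and UQCRFS1, all lower (5.56% of members, against 0.992% of all genes called lower). Without 100 Cell Rep 1 edgeR called it (adjusted p = 0.0191) together with ATP5G3 (0.0446), 3.70% of members against 0.533% of all genes. UQCRHL had the lowest log2 fold change, -0.78, on 7.91 and 16.95 CPM at 10 cells against 18.9 to 24.5 CPM, mostly through 10 Cell Rep 1. COX17 was at 29.2 and 31.4 CPM at 10 cells against 35.5 to 40.5 CPM, without overlap (log2 fold change -0.32, adjusted p = 0.264). COX16 and COX7B differed by -0.08 and -0.12.

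The third comparison set 100 cells against 1000 cells, with 2 libraries each. No member and no gene was called, 0.0% of 15597 in either direction. At an unadjusted p under 0.05 there were 314 genes, none of them a member, and DESeq2 called 1 gene. Of the members 34 of 54 (63.0%) were below 0, against 50.3% of all genes. The 100-cell libraries lay entirely above the 1000-cell libraries for 7 members (12.96%), against 16.3% of all genes, and entirely below for 8 (14.8%), against 16.9%. Both shares were under the background. The 100-cell libraries differed from each other: without 100 Cell Rep 2, 20 members (37.0%) were called, 19 of them lower, among 4951 genes called (30.4%), and this fit rests on a single 100-cell library. The count of members called stayed at 0 when any other library was left out.

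Other genes of the pathway gave similarly small counts in single cells against the larger inputs. Over all genes tested 4.45% were called lower and 2.22% higher. The counts of 2 of 39 and 2 of 31 were near that share, and no list was tested as a whole. Of 39 complex I subunits 2 were lower and 0 higher: NDUFA9 (log2 fold change -0.68) and NDUFB5 (-0.69). Of 31 further assembly factors 2 were lower, LYRM7 (-0.75), which carries the Rieske protein into complex III, and TACO1 (-0.76), a translational activator of mitochondrially encoded COX1. LYRM7 was at 21.9, 21.8 and 26.9 CPM in single cells, against 34.7 to 44.2 CPM in the larger inputs. TACO1 was at 15.9, 21.1 and 21.9 CPM in single cells, against 29.5 to 35.3 CPM. A list of 11 genes held regulators of nuclear respiratory genes together with factors that act on mitochondrial DNA. Of these regulators 1 was lower, TFAM (-0.47), the packaging and transcription factor of mitochondrial DNA. TFAM was at 87.01, 114 and 125 CPM in single cells against 147 to 156 CPM. NRF1, GABPA and YY1 did not pass. None of 11 genes of coenzyme Q synthesis and none of 2 complex V subunits filed under other names passed. All 5 called genes had adjusted p values between 0.0222 and 0.0481 (edgeR). In the other comparisons none of these lists had a called gene. At 10 cells against 100 and 1000 cells the median log2 fold change was 0.00 over all genes. It was -0.16 for complex I subunits, -0.15 for the assembly factors and -0.13 for coenzyme Q synthesis. For the 2 other complex V subunits it was -0.33, and for the regulators -0.02, with 6 of 11 below 0.

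By exon length, 5 tested members had models under 500 bases: ATP5E, COX17, ATP5I, COX7C and COX7B. All 5 were below 0 in single cells against the larger inputs, ATP5I only at -0.007, with a median log2 fold change of -0.36, and 2 were called. Over all 659 genes of that length the median was 0.08, 310 were below 0 and 37 were called lower. The 18 members from 500 to 1000 bases had a median of -0.06, the 16 from 1000 to 2000 bases -0.06, and the 15 of 2000 bases or more -0.16. Over all genes of those lengths the medians were -0.05, -0.06 and 0.03. The part of transcript length in these differences was not tested.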

How the data were processed

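Sorted HAP1 cells were profiled by stranded total RNA sequencing (SMART-Seq Stranded, 50 bp paired-end reads) after NAxtra extraction, in 9 libraries of 1, 10, 100 or 1000 cells. Per the submitters' processing notes, reads were checked with FastQC 0.11.9, trimmed with Trim Galore 0.6.7, aligned to hg38 with HISAT2 2.2.1 and sorted with SAMtools 1.16.1. The deposited values are raw counts per gene model, made by the authors with featureCounts (Subread 2.0.6) from exons, by strand. Per the file headers, single reads rather than pairs were counted, and reads that mapped to several places or overlapped several genes were left out. There are no molecular identifiers, so limits from counts cover counting error only. The labels give a smaller DNase volume than the study's methods give for 1000 cells.

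Counts were fitted with edgeR 4.0.16 in R 4.3.3 (TMM factors, filterByExpr, quasi-likelihood test, Benjamini-Hochberg adjustment over all genes tested, threshold 0.05). Log2 CPM used a prior count of 2, and SE is the log2 fold change over the root of F. Alternatives were DESeq2 1.42.0, limma 3.58.1 with a weight per cell number, RLE factors, filters, thinning to the smallest library, a prior count of 0.5, a replicate block, and leaving out each library. The test was checked on simulated data. Members and lists were chosen with earlier results of these data known. Values in every library were given by rule for members called, the highest and lowest per length in each group, the largest difference in each group, isoform pairs, and members at 0 in some libraries. Genes apart in a single cell were chosen after their values were seen. Replicate numbers did not pair the libraries. Shared 50-base windows were sought in GENCODE 29 transcripts and promoters in RefSeq tables of GRCh38.p14. A further blood cell marker is not reported here.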

Additional observations from a re-analysis of the deposited data

Results flagged for a closer look

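Among the 6 libraries of 10, 100 and 1000 cells, 8 members had 1 library with a gap to the others beyond Dixon's 95% limit, out of 53 members checked at 1 CPM or more. The limit gives about 1 in 20 only for libraries that vary alike, and these differ in cell number. The share was 15.1% of members, against 10.7% of all 13470 genes at that level. In 7 of the 8 (87.5%) the library was a 10-cell library, as in 61.7% of all such genes. 10 Cell Rep 1 was low for UQCRHL at 7.91 CPM (others 16.95 to 24.5 CPM), for COX20, a chaperone of COX2, at 27.5 CPM (others 36.2 to 39.3 CPM) and for COX6C at 123 CPM (others 136 to 143 CPM), and high for ATP5D at 109 CPM (others 97.2 to 101 CPM). 10 Cell Rep 2 was low for SDHB at 83.3 CPM (others 103 to 113 CPM), for COX4I1 at 237 CPM (others 279 to 304 CPM) and for ATP5J2, subunit f, at 18.2 CPM (others 23.3 to 26.2 CPM). 100 Cell Rep 1 was low for UQCRH at 77.6 CPM (others 88.4 to 95.5 CPM).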

How the results depend on the processing

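All directions named for COX17, COX16 and COX7B held in the 18 alternatives. Of single cells against larger inputs, 1041 genes were called, 347 higher and 694 lower. The fit of 9 libraries as 4 groups called 0, limma with weights 1, a minimum of 10 CPM 576 (312 higher, 264 lower), no filter 682, DESeq2 2595 and a replicate block 2077, and leaving out a library 0 to 3188. The members called, 3 in the reported fit, were 0 with 4 groups, 0 with limma, 9 with DESeq2, 11 with the block (20.4%, against 13.3% of all genes) and 0 to 14 without 1 library. Their median of -0.10 was -0.19 with limma and -0.15 to -0.08 without 1 library. At 10 cells against 100 and 1000 cells, 3 genes were called, 0 with 4 groups, 7 without a filter (members 1), 271 with DESeq2 (members 3), and 0 to 162 (members 0 to 2, median -0.18 to -0.08) without 1 library. At 100 against 1000 cells 0 genes were called, 1 with DESeq2, 2 with limma, 31 without a filter, 20 with the block, and 3 to 4951 (members 0 to 20, median -0.11 to 0.04) without 1 library. Some fits left 1 library in an arm, assumed to vary like the others. Of named members, COX6B2 reversed to -2.85 with the block, and without 1 library ranged from -2.89 to 2.25. SDHC ranged from -0.70 to 0.41 without 1 library. The causes were not tested.

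The numbers did not pair the libraries: same-numbered deviations correlated between -0.04 and 0.02 over 16184 genes, so the block result is given here only. RLE factors, thinning and the smaller prior changed no call of a member. A member that did not pass is not shown to be equal between groups. Genes at a few counts, COX7A1 and COX8C, could not be compared.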
